A study of Glycine max with 6 samples.

Results

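FAD2 and FAD3 are the fatty acid desaturases of the endoplasmic reticulum, and 8 soybean genes of these families were followed in leaf RNA: FAD2-1A (Glyma.10G278000), FAD2-1B (Glyma.20G111000), the FAD2-2 genes Glyma.19G147300, Glyma.19G147400 and Glyma.03G144500, FAD3A (Glyma.14G194300), FAD3B (Glyma.02G227200) and FAD3C (Glyma.18G062000). They were taken by identifier, and all 8 were among the 56044 genes of the count table. RNA-seq was performed on leaf disks of wild-type BR16 plants, a soybean cultivar grown in soil in a greenhouse, with 3 libraries of 80 days after germination (DAG) and 3 libraries of 20 DAG. According to the methods, these are a late reproductive stage (R7) and a young vegetative stage (V3), although the sample labels call both ages vegetative. Middle leaflets of the third and of the seventh trifoliate leaf were sampled, and which leaf was taken at which age is not given in the sources used here, so the contributions of age, stage and leaf position cannot be told apart. The plants behind a library are described as biological triplicates, and the number of plants in each is not given.

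FAD2 enzymes convert oleate to linoleate while the fatty acid is bound to phosphatidylcholine, and FAD3 enzymes convert linoleate to linolenate on the same lipid. Separate desaturases in the plastid carry out the same steps on the galactolipids of the thylakoid membrane, so the endoplasmic reticulum enzymes account for only part of the polyunsaturated fatty acids of a leaf. In soybean the FAD2-1 genes are known as the seed-type genes, FAD2-2 genes are known from vegetative organs as well, and the FAD3 genes, FAD3A above all (the Fan locus), are known for the linolenate content of seed oil.

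The 8 genes divided into 3 that were hardly detected and 5 that were lower at 80 DAG. The 3 FAD3 genes, which make the omega-3 desaturase, nearly disappeared from the libraries of 80 DAG. Glyma.19G147400 fell 12.4-fold, whereas Glyma.03G144500, the other detected FAD2-2 gene, fell 2.32-fold and was still present at 47.7 ± 7.60 CPM (SD, n = 3) at 80 DAG. Values are given as raw counts and as CPM, which are counts divided by the effective size of a library and so corrected for the total and the composition of each library. Differences were tested with edgeR's quasi-likelihood test over all genes that passed a filter on low counts, and differential expression (DE) was called at an adjusted p under 0.05. A fall in CPM in leaf disks does not tell apart fewer cells that express a gene from less RNA per cell.

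**Figure D1:**
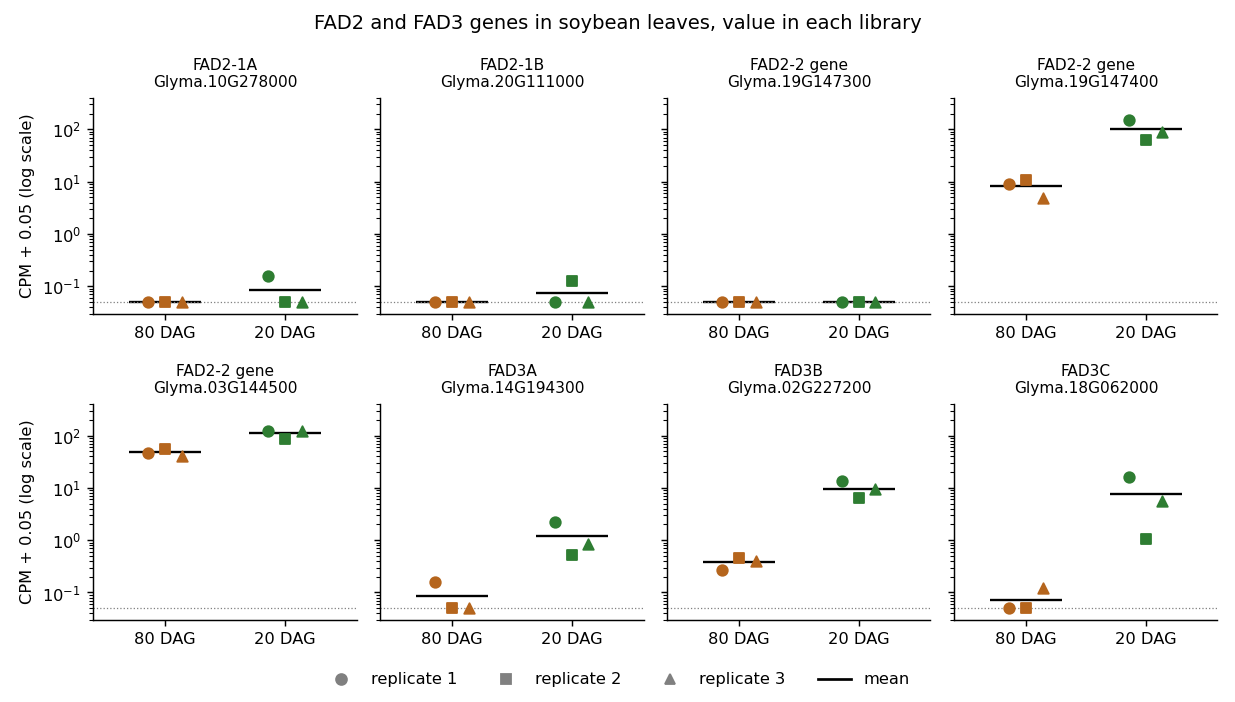
Level of each of the 8 genes in each library, as CPM plus 0.05 on a log axis, with the libraries of 80 DAG left of those of 20 DAG, a symbol for each replicate and a bar at the mean. The dotted line marks 0 counts. Glyma.03G144500 keeps 41.5 to 56.2 CPM at 80 DAG, and no FAD3 gene exceeds 0.411 CPM there.

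FAD2-1A and FAD2-1B, which make the oleate desaturase of developing seeds, held 2 counts between them in 76091712 counts of the 6 libraries. FAD2-1A had 0, 0 and 0 counts at 80 DAG, against 1, 0 and 0 counts at 20 DAG. FAD2-1B had 0, 0 and 0 counts at 80 DAG, against 0, 1 and 0 counts at 20 DAG. Pooled over the 3 libraries of 80 DAG, a count of 0 allows a level of up to 0.0667 CPM (3 counts, counting error only), so the presence of these transcripts in leaves was not detectable at this depth at 80 DAG. Both genes were removed by the filter. In a fit that kept all genes with a count, their adjusted p was 0.391 for FAD2-1A and 0.386 for FAD2-1B. The age comparison is therefore empty for the FAD2-1 pair.

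Glyma.19G147300, a FAD2-2 gene, had 0 counts in each of the 6 libraries and could not be tested. It was 1 of 12326 genes of the table without a count anywhere, and a pooled count of 0 allows a level of up to 0.0667 CPM at 80 DAG and 0.0930 CPM at 20 DAG. Its identifier is directly followed by Glyma.19G147400, which was well covered. In the RefSeq annotation the FAD2-2A and FAD2-2B genes of chromosome 19 are consecutive entries as well. How the counting treated reads that match more than 1 copy is not given in the sources used here, so the assignment of reads to this pair is uncertain.

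Glyma.19G147400 had 164, 131 and 70 counts at 80 DAG, against 1433, 796 and 911 counts at 20 DAG. In CPM, it had 8.90, 10.8 and 4.85 at 80 DAG, against 153, 61.9 and 90.9 at 20 DAG. The ages did not overlap, and the lowest library of 20 DAG was 5.75 times the highest of 80 DAG. The mean was 8.18 ± 3.03 CPM at 80 DAG and 102 ± 46.3 CPM at 20 DAG (SD, n = 3 each). This gave a log2 fold change of −3.64 (95% interval −4.68 to −2.59, edgeR adjusted p = 0.000723), and 8.03% of the level of 20 DAG was left at 80 DAG. The spread among replicates was wide at both ages, with a coefficient of variation of 37.0% at 80 DAG and 45.5% at 20 DAG, where the median over all tested genes was 16.7% at 80 DAG and 21.2% at 20 DAG.

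Glyma.03G144500, the FAD2-2 gene on chromosome 3, had 837, 683 and 599 counts at 80 DAG, against 1168, 1100 and 1222 counts at 20 DAG. This corresponded to 45.4, 56.2 and 41.5 CPM at 80 DAG, against 124, 85.6 and 122 CPM at 20 DAG. Again no library of 80 DAG reached the lowest of 20 DAG, but the gap was small, with a ratio of 1.52 between the nearest libraries of the 2 ages. The mean was 47.7 ± 7.60 CPM at 80 DAG and 111 ± 21.7 CPM at 20 DAG (SD, n = 3 each). This gave a log2 fold change of −1.21 (95% interval −1.74 to −0.69, adjusted p = 0.00403), so that 43.1% of the level remained. Its replicates were the closest among the detected genes of these families, with a coefficient of variation of 15.9% at 80 DAG and 19.6% at 20 DAG.

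The fitted falls of the detected FAD2-2 genes differed in size, and their ratio was therefore examined within each library, where scaling plays no part. The counts of Glyma.19G147400 over those of Glyma.03G144500 gave ratios of 0.196, 0.192 and 0.117 at 80 DAG, against 1.23, 0.724 and 0.745 at 20 DAG. No ratio of 80 DAG reached those of 20 DAG, and on average the ratio was 5.32-fold lower at 80 DAG, a log2 difference of −2.41 (log2 ratio −2.61 ± 0.42 at 80 DAG and −0.20 ± 0.43 at 20 DAG, SD, n = 3 each; exact permutation test, two-sided, p = 0.1). Of the counts of the FAD2-2 genes, Glyma.03G144500 held 83.6%, 83.9% and 89.5% at 80 DAG, against 44.9%, 58.0% and 57.3% at 20 DAG. These shares are not corrected for transcript length and serve to compare the ages, not the genes.

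FAD3B was set against both FAD2-2 genes in the same way. Its ratio to Glyma.19G147400 was 0.0244, 0.0382 and 0.0714 at 80 DAG, against 0.0879, 0.101 and 0.103 at 20 DAG, a log2 difference of −1.26. Its ratio to Glyma.03G144500 was 0.00478, 0.00732 and 0.00835 at 80 DAG, against 0.108, 0.0727 and 0.0769 at 20 DAG, a log2 difference of −3.67. Each of the 3 ratios among these genes is fixed by the others, so the pairs are not independent comparisons. The exact permutation test gave p = 0.1 for each of the 3 pairs compared and an adjusted p of 0.1 over them. This is the smallest p that 3 libraries against 3 allow. The threshold therefore cannot be reached by this test, and the 4 or 5 counts of FAD3B in a library of 80 DAG make its ratios there imprecise.

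**Figure D2:**
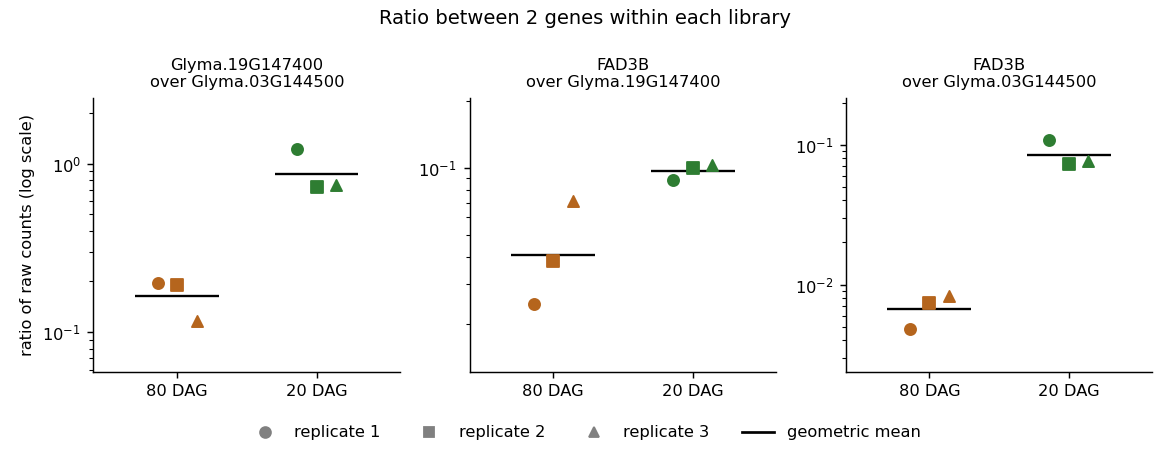
Ratio of raw counts between 2 genes in each library, on a log axis that differs between panels, with the libraries of 80 DAG left of those of 20 DAG and a bar at the geometric mean. In each of the 3 panels the libraries of 80 DAG lie below those of 20 DAG, and the gap is narrowest for FAD3B over Glyma.19G147400 (0.0714 at 80 DAG next to 0.0879 at 20 DAG). The panels are not independent, since each ratio is fixed by the others.

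Among the genes of the omega-3 step, FAD3B was the most evenly measured. It had 4, 5 and 5 counts at 80 DAG, against 126, 80 and 94 counts at 20 DAG. In CPM, it had 0.217, 0.411 and 0.347 at 80 DAG, against 13.4, 6.23 and 9.38 at 20 DAG. The lowest library of 20 DAG was 15.1 times the highest of 80 DAG. FAD3B averaged 0.325 ± 0.0990 CPM at 80 DAG and 9.67 ± 3.60 CPM at 20 DAG (SD, n = 3 each). The fitted log2 fold change was −4.89 (95% interval −5.86 to −3.92, adjusted p = 0.000184 from edgeR). This is a 29.7-fold lower level, with 3.36% left at 80 DAG.

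FAD3C had 0, 0 and 1 counts at 80 DAG, against 152, 13 and 55 counts at 20 DAG. Its level at 20 DAG was uneven, with 16.2, 1.01 and 5.49 CPM and a 16.0-fold range between replicates 1 and 2, but each of these was above the highest library of 80 DAG (0.0693 CPM). Pooled by age, 1 count stood against 220, and the pooled level was 307-fold lower at 80 DAG (exact 95% interval 54.5 to 12177, counting error only). The fitted log2 fold change was −7.87 (95% interval −11.40 to −4.34, adjusted p = 0.00464), a value that depends on how the fit treats counts near 0. Leaving out a library moved it to −6.67 without 20 DAG replicate 1, −7.26 without 80 DAG replicate 1 and −9.54 without 80 DAG replicate 3, the only one of that age with a count. With limma-voom it was −6.39. FAD3C was DE in each of these fits.

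FAD3A had 2, 0 and 0 counts at 80 DAG, against 20, 6 and 8 counts at 20 DAG, or 0.109, 0 and 0 CPM against 2.13, 0.467 and 0.799 CPM. The ages did not overlap here either. Pooled, 2 counts stood against 34, and the level was 23.7-fold lower at 80 DAG (exact 95% interval 6.08 to 204, counting error only). FAD3A was removed by the filter, and its test comes from the fit that kept every gene with a count, with a log2 fold change of −4.35 (95% interval −6.63 to −2.08, adjusted p = 0.00877). Without 20 DAG replicate 1 it was −3.55, and without 80 DAG replicate 1, which held both counts of that age, it was −6.70. The adjusted p over all alternatives ranged from 0.00279 to 0.0316.

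All 4 genes that passed the filter were DE and lower at 80 DAG, where 26.0% of the 30058 genes tested were DE and lower and 49.1% were DE in either direction. FAD3B and FAD3C passed the filter through their libraries of 20 DAG alone, so they could only enter the test as genes that were higher at that age. Without the filter, 5 genes of the families were DE and lower, beside 21.3% of the 43718 genes then fitted. In these 5 genes every library of 80 DAG was below every library of 20 DAG. They were already called DE and lower, so this adds no separate support. Among the 30058 genes tested with the filter, which leave out FAD3A, it was the case for 31.2%. Of all tested genes, 5.45% had a more negative fitted log2 fold change than Glyma.19G147400 and 18.8% than Glyma.03G144500. For FAD3B and FAD3C no such rank is given, since the way they passed the filter already fixed the direction of their change.

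**Figure D3:**
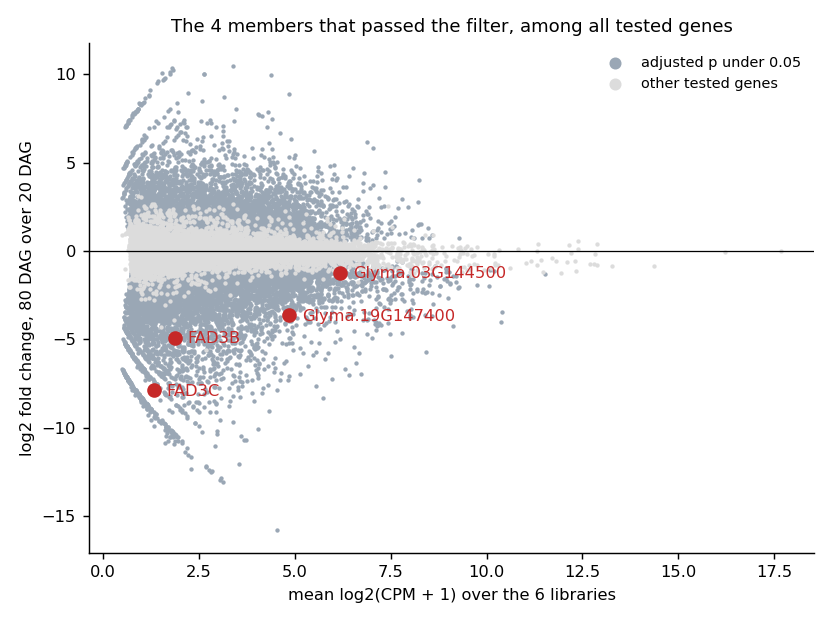
Fitted log2 fold change of 80 DAG over 20 DAG against the mean log2(CPM + 1) over the 6 libraries for all 30058 tested genes, with DE genes in darker grey and the 4 genes of the families that passed the filter in red. Of the 4 genes in red, Glyma.03G144500 (−1.21) lies closest to 0, and FAD3C (−7.87) lies among the low-count genes with the most negative values.

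Since reads of close paralogs may be divided arbitrarily between rows, each family was also summed before the fit. The FAD2-2 genes together had 55.9 ± 10.4 CPM at 80 DAG and 212 ± 64.7 CPM at 20 DAG (SD, n = 3 each), and the fitted log2 fold change was −1.93 (edgeR adjusted p = 0.00170). The FAD3 genes together had 0.384 ± 0.0510 CPM at 80 DAG and 18.4 ± 12.2 CPM at 20 DAG (SD, n = 3 each), and the fitted log2 fold change was −5.55 (edgeR adjusted p = 0.000543), which was −4.91 without 20 DAG replicate 1. The raw sum of the FAD3 genes was 6, 5 and 6 counts at 80 DAG, against 298, 99 and 157 counts at 20 DAG. Summed FAD3 counts were thus uneven among the libraries of 20 DAG, where replicate 1 was highest. At 80 DAG, sums of 5 or 6 counts are too few to judge the spread between libraries. A share of FAD3 counts by gene can be read only at 20 DAG, where FAD3B held 42.3%, 80.8% and 59.9%, FAD3C 51.0%, 13.1% and 35.0%, and FAD3A 6.71%, 6.06% and 5.10% in replicates 1, 2 and 3.

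**Figure D4:**
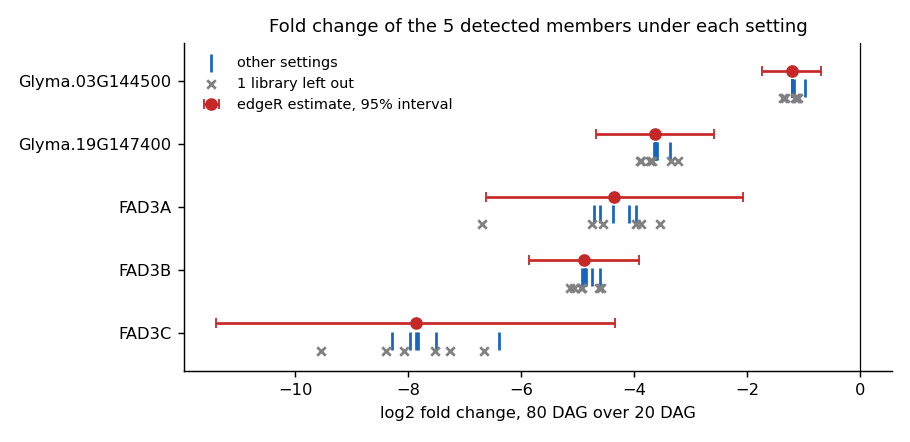
Log2 fold change of 80 DAG over 20 DAG for the 5 detected genes, with the edgeR estimate and its 95% interval in red, other settings as blue bars and fits with 1 library left out as grey crosses. Each value lies below 0, and the intervals are widest for FAD3C (−11.40 to −4.34) and FAD3A (−6.63 to −2.08).

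The pattern of Glyma.03G144500 over the 6 libraries was most like that of Glyma.04G156900 (Pearson r = 0.999 of log2(CPM + 1), n = 6 libraries), and that of FAD3B was most like Glyma.08G003500 (r = 0.9998, n = 6). Such likeness was common, since 2952 of the other 30057 tested genes had an r above 0.95 with Glyma.03G144500 and 4052 with FAD3B. The 6 points fall into 2 age groups that set most of each r, and neither gene is named in the tables used here.

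Library totals lay between 10758425 and 15883253 counts, and the largest row of the table took 18.7% to 27.4% of them. Replicates of an age differed by more than sampling noise (chi-square per degree of freedom 7.71 to 49.9), so none was a copy of another. The leaf label was not checked against marker genes, because the identifiers could not be paired with gene names here.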

How the data were processed

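The authors extracted leaf RNA, depleted ribosomal RNA, made stranded libraries and sequenced paired-end reads. They deposited raw counts per gene of the Wm82.a2.v1 models. The submitters' processing notes list CASAVA 1.7, Bowtie2 and DESeq2. The counting program, its use of strand and its treatment of multiply mapped reads are not given in the sources used here. The 6 columns used each matched a sample title. No cell held a normalized value.

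From these counts, 80 DAG was compared with 20 DAG by edgeR 4.0.16 (R 4.3.3) with TMM factors, filterByExpr, and Benjamini-Hochberg adjustment over all genes tested. Standard errors and 95% intervals were derived from the F statistic and its degrees of freedom. Unfiltered fits kept genes with at least 1 count. Single ratios were tested with scipy 1.17.1. Alternatives were DESeq2 1.42.0 or its size factors, limma-voom (limma 3.58.1), library size alone, other filters, stricter thresholds, a replicate block and each library left out. The fit was tested on simulated data. Python 3.11.15, pandas 2.3.3, numpy 2.4.6 and matplotlib 3.10.9 were used for summaries and plots.

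The genes and tests were chosen with earlier results of these data known, and the ratios between genes were chosen after the values were seen. All 8 genes are named. For the FAD2 and the FAD3 gene with the highest mean CPM the rule asked for the 3 most similar genes, and only the first is printed. The 8 names are symbols of the RefSeq table (assembly Glycine_max_v4.0), which gives 0 Glyma identifiers and no product names. The lists of other lipid genes and tissue markers, and levels per transcript length, were therefore not analysed here.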

Additional observations from a re-analysis of the deposited data

How the results depend on the processing

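All 5 detected genes stayed lower at 80 DAG and DE under every alternative that tested them: 13 for Glyma.19G147400 (log2 fold change −3.90 to −3.23) and Glyma.03G144500 (−1.37 to −0.98), 12 for FAD3B (−5.14 to −4.59) and FAD3C (−9.54 to −6.39) and 11 for FAD3A (−6.70 to −3.55). The summed FAD2-2 counts ranged from −2.13 to −1.67 and the summed FAD3 counts from −5.93 to −4.91. Requiring at least 10 counts in every library left 2 of the 4 genes in the test, Glyma.19G147400 and Glyma.03G144500, because FAD3B and FAD3C have fewer counts at 80 DAG. Over the table, 14758 genes were DE at an adjusted p under 0.05 and 9492 under 0.01. Scaling by library size alone shifted the log2 fold change at the middle of the tested genes to 0.21, against −0.02 with TMM, and Glyma.03G144500 to −0.98. Whether libraries with equal replicate numbers share more than the number is not given in the sources used here. Their deviations from the mean of each age had correlations of −0.24, −0.32 and 0.07, which cannot decide it with 3 libraries per age. With the replicate block 11702 genes were DE, and the edgeR adjusted p was 0.00506 for Glyma.19G147400, 0.0269 for Glyma.03G144500, 0.00268 for FAD3B and 0.00288 for FAD3C. FAD3A was read from the unfiltered fit with that block, in which 12613 genes were DE, and its edgeR adjusted p was 0.0108. With 0 to 5 counts in a library of 80 DAG, the size of the fall of the FAD3 genes is limited by depth.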

Other observations

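Within the young leaves, the detected FAD2 and FAD3 genes ranked the libraries alike. In CPM, replicate 1 of 20 DAG held the highest and replicate 2 the lowest value of Glyma.19G147400 (153 and 61.9), Glyma.03G144500 (124 and 85.6), FAD3A (2.13 and 0.467), FAD3B (13.4 and 6.23) and FAD3C (16.2 and 1.01), and replicate 3 lay between them in all 5 genes. The same ranking was found in 26.6% of the tested genes, in 44.6% of the genes that were DE and lower at 80 DAG and in 10.6% of those DE and higher. FAD3A is not among the tested genes, and its 8 and 6 counts in replicates 3 and 2 are too few to settle their order. Replicate 1 also had the lowest TMM factor (0.773, against 1.09 for replicate 2 and 0.934 for replicate 3). When counts were scaled by library totals alone, an alternative chosen after seeing the data, 4 of the 5 genes kept the ranking, which was then found in 11.0% of the tested genes, 22.2% of the genes DE and lower and 3.05% of those DE and higher. The exception was Glyma.03G144500, with 95.9, 92.4 and 114 CPM of the library total in replicates 1, 2 and 3. The part of the library composition in this ranking was not tested further.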
